A study of Mus musculus with 28 samples.

Results

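Messenger RNA of 8 genes that carry or control calcium, magnesium and sodium transport in the distal tubule was followed in the kidneys of diabetic mice given exercise, a drug or both. The genes were taken by symbol: Slc12a3, Wnk1, Trpm6, Pvalb, Trpv5, Calb1, S100g and Slc8a1. All 8 were among the 21797 named genes of the kidney table, and all 8 passed the filter on low values that left 11551 genes for testing. Every animal was a male C57BL/KsJ db/db mouse, a line with a defective leptin receptor that becomes obese and diabetic, so the controls carried the mutation too. Treatment began at 8 weeks of age and ran for 8 weeks. The groups were high-intensity interval training on a treadmill in sessions of 60 min (HIIT), semaglutide, HIIT with semaglutide (combined), and untreated sedentary db/db mice (control). Semaglutide activates the receptor of the gut hormone GLP-1 and is long-acting. Its dose stands as 0.05 mg/kg in the sample titles and as 30 nmol/kg in the protocol, which are different amounts, and which of them was given could not be settled. No lean mice were included, so the levels cannot be set against a non-diabetic kidney. Each group had 4 kidney libraries, 16 in all, from bulk tissue.

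The distal convoluted tubule and the connecting tubule after it make the last regulated adjustments to urinary salt, calcium and magnesium. Sodium and chloride enter through the thiazide-sensitive cotransporter encoded by Slc12a3 (NCC), whose activity is set by a kinase cascade that includes the product of Wnk1. Magnesium enters through the channel Trpm6. Calcium enters through the apical channel Trpv5, is carried across the cell by calbindin-D28k (Calb1) and calbindin-D9k (S100g), and leaves on the blood side through the sodium-calcium exchanger encoded by Slc8a1 (NCX1) and through calcium pumps. Parvalbumin (Pvalb), another EF-hand calcium-binding protein, marks the early distal convoluted tubule. Active vitamin D raises Trpv5 and the calbindins in mouse kidney.

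The promoters of 4 of the genes are shown because these genes differ in how they moved across the libraries. With all 16 libraries, Slc12a3, Trpv5 and Slc8a1 followed each other and S100g did not. That split depended on single libraries, as given below. Each is the 250 bases before and the 50 bases after the RefSeq start of the gene, on the mouse build GRCm38.p6, 5′ to 3′ along the gene. Capitals mark matches, on either strand, to the 6 motifs that are spelled out after the sequences.
Slc12a3, chr8:94328958-94329257, plus strand: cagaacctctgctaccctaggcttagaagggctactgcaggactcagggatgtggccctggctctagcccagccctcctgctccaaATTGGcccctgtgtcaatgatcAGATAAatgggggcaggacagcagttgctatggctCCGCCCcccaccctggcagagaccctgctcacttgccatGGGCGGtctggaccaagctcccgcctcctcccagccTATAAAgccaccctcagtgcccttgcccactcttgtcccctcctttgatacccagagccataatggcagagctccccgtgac
Trpv5, chr6:41680674-41680973, minus strand: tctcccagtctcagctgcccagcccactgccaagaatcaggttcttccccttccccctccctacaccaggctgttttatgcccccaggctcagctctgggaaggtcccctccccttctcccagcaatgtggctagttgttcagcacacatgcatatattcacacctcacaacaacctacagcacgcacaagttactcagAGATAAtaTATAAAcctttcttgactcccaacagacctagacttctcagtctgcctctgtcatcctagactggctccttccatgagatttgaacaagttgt
Slc8a1, chr17:81738338-81738637, minus strand: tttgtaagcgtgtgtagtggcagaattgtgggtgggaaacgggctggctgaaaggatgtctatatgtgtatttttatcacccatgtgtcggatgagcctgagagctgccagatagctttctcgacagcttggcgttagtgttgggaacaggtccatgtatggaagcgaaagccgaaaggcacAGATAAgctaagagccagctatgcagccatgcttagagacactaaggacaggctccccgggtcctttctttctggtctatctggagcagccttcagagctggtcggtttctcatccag
S100g, chrX:162964550-162964849, minus strand: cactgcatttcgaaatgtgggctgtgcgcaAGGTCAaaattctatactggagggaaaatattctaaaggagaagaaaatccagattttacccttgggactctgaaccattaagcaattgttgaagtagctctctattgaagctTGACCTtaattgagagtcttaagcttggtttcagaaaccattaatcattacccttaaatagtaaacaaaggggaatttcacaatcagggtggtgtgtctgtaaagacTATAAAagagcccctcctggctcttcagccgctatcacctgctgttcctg
Promoters of 7 of the 8 genes were in the RefSeq table, 8 promoters in all since Pvalb had more than 1, and Calb1 is named only. AGATAA, a form of the GATA factor motif, stood in the promoters of Slc12a3, Trpv5 and Slc8a1, that is in 3 of 8, against 11.2% of all 32851 promoters of the same length. TATAAA, the letters of the TATA box, stood in those of Slc12a3, Trpv5 and S100g, against 13.6% of all promoters. Its first base lay at -32 in Slc12a3 and at -43 in Trpv5 relative to the annotated start, but at 0, on the start itself, in S100g, which is not where a TATA box lies. AGGTCA, a half-site of nuclear receptors such as the vitamin D receptor, stood in the S100g promoter, against 16.3% of all. GGGCGG (35.7% of all) stood in the promoters of Slc12a3 and Wnk1, CCAAT (37.4%) in that of Slc12a3 and AGAACA (19.0%) in 1 promoter of Pvalb. The motifs were chosen after the sequences had been seen, and a match is a description of letters only. Slc8a1 and Wnk1 are known to use several promoters, of which the table lists 1 each.

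Levels are in FPKM, sequenced fragments relative to the length of the transcript and to all fragments of the library. How many reads lie behind a value is not known from such a table. The FPKM of a kidney library added up to between 495273 and 662489. The mitochondrially encoded share of it was 44.5 ± 13.9% in HIIT, 39.8 ± 6.66% in semaglutide, 38.6 ± 7.19% in combined and 32.2 ± 7.87% in control libraries (SD, n = 4 each). Control 1 stood apart: its median correlation with the other libraries was 0.910, against 0.959 to 0.980 for the other 15, and its immune marker transcripts summed to 6570 FPKM, against at most 300.5 FPKM in any other library. Semaglutide 4 stood apart in 6 adipocyte markers, which summed to 458 FPKM, against at most 99.3 FPKM in any other library. HIIT 4 was the highest of the 16 libraries for 5 of the 8 genes, and semaglutide 2 was the lowest of the 16 for 5. Semaglutide 2 also had the lowest summed level of proximal tubule markers (1506 FPKM, close to control 1 at 1508 FPKM) and of podocyte markers (51.1 FPKM). Its thick ascending limb markers summed to 1326 FPKM, the highest after HIIT 4 at 1355 FPKM. Both distal convoluted tubule markers outside the 8 genes and proximal tubule markers were present in every library, at summed levels of 234 to 560 FPKM and of 1506 to 2827 FPKM.

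S100g was by far the most abundant of the 8 per unit of transcript length, at 814.7 ± 290.7 FPKM in HIIT, 809 ± 133 FPKM in semaglutide, 712 ± 91.3 FPKM in combined and 830.4 ± 352 FPKM in control kidneys (SD, n = 4 each). Calb1, Slc12a3 and Pvalb came next with group means between 40.9 and 148 FPKM, then Wnk1 with group means of 13.2 to 19.7 FPKM. Slc8a1, Trpv5 and Trpm6 had group means of 1.39 to 8.56 FPKM. Trpm6 lay lowest, between 0.759 and 3.28 FPKM in single libraries.

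**Figure D1:**
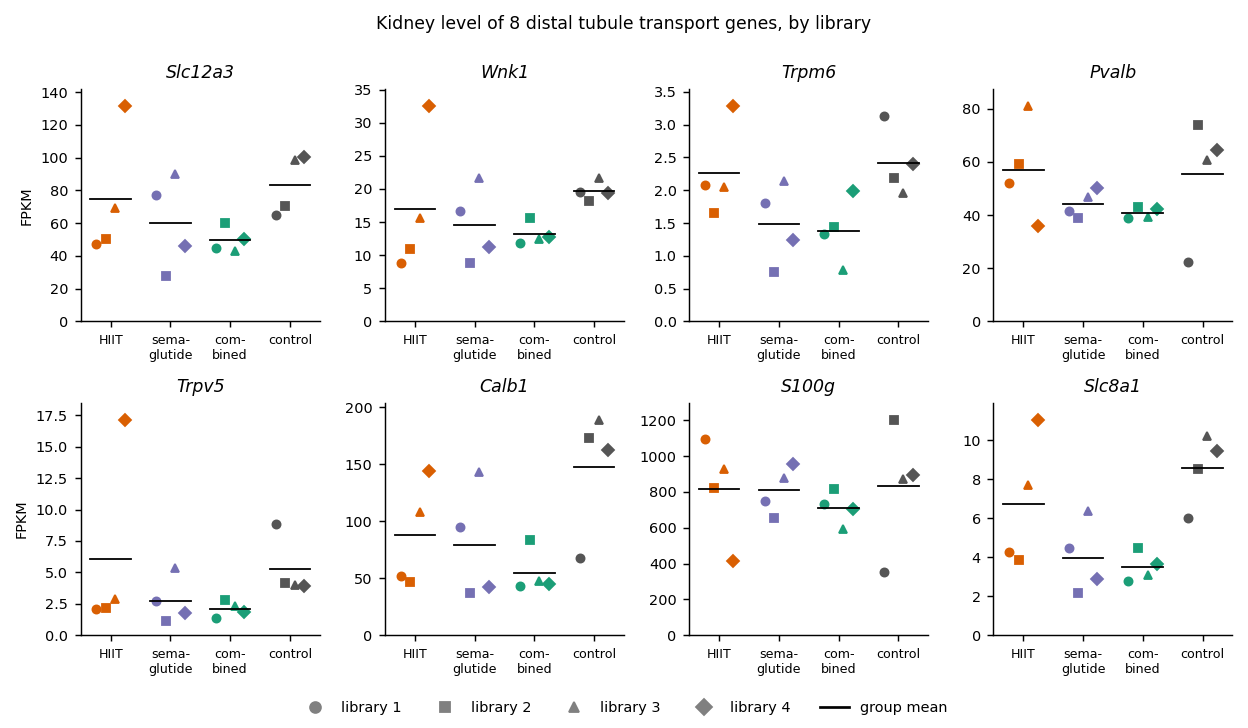
Kidney level of each gene in FPKM (vertical axis, linear, from 0) in the 4 libraries of each group, with a line at the group mean. In the combined group all 4 libraries of Slc12a3, Wnk1, Trpv5 and Slc8a1 lie below all 4 control libraries, while HIIT 4 is the highest library for 5 genes and control 1 is the lowest of all for Pvalb and S100g.

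With sodium chloride uptake, Slc12a3 measured 44.9, 60.2, 42.7 and 50.5 FPKM in combined kidneys, against 64.8, 70.6, 98.4 and 100.5 FPKM in control kidneys. The 2 groups did not overlap, and the highest combined library was close to the lowest control library. HIIT kidneys had 47.2, 50.4, 69.2 and 131 FPKM and semaglutide kidneys 77.4, 27.9, 89.9 and 46.0 FPKM of Slc12a3. Both of these groups reached into the control range, HIIT with library 3 (library 4 lay above it) and semaglutide with libraries 1 and 3. On the log2(FPKM + 1) scale, Slc12a3 differed from control by -0.26 ± 0.34 in HIIT, -0.57 ± 0.34 in semaglutide and -0.73 ± 0.34 in combined kidneys (standard error; limma, adjusted p = 0.626, 0.913 and 0.994). None of these passed the threshold of 0.05 on the adjusted p. In bulk kidney, fewer distal tubule cells and less of a transcript per cell cannot be told apart. Differences on this scale understate the change of weakly expressed genes.

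Wnk1, the kinase gene, had 11.8, 15.5, 12.5 and 12.8 FPKM in combined kidneys, against 19.6, 18.2, 21.7 and 19.4 FPKM in control kidneys. These groups were tight and did not overlap. In HIIT it had 8.83, 10.9, 15.6 and 32.5 FPKM, so that libraries 1 to 3 lay below every control and library 4 above every control. Semaglutide kidneys had 16.7, 8.90, 21.6 and 11.2 FPKM, with library 3 inside the control range and the others below it. The differences from control were -0.37 ± 0.31 in HIIT, -0.48 ± 0.31 in semaglutide and -0.55 ± 0.31 in combined kidneys on the log2 scale, and limma's adjusted p was 0.465, 0.913 and 0.994. Without HIIT 4 the Wnk1 difference of HIIT from control was -0.73 and passed (limma, adjusted p = 0.0468), as did 2123 of all genes, against 0 with it. Of the 8 genes Wnk1 was the 1 that passed there. The kidney-specific short form of Wnk1 and the full-length form are summed in these gene values and could not be separated.

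Among the magnesium genes, Trpm6 measured 1.33, 1.43, 0.785 and 1.99 FPKM in combined kidneys and 1.80, 0.759, 2.15 and 1.25 FPKM in semaglutide kidneys, against 3.12, 2.18, 1.96 and 2.40 FPKM in control kidneys. Each treated group reached into the control range with 1 library, combined 4 and semaglutide 3. HIIT kidneys had 2.08, 1.65, 2.06 and 3.28 FPKM, a range that covered that of the controls. The 8 libraries with semaglutide (alone or combined) were set against the 8 without it (HIIT or control), a contrast called the semaglutide main effect here. In it Trpm6 differed by -0.47 ± 0.15 on the log2 scale (limma, adjusted p = 0.670, and exact two-sided permutation test, unadjusted p = 0.00451).

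Pvalb had 39.0, 43.0, 39.2 and 42.2 FPKM in combined kidneys and 41.4, 39.0, 46.6 and 50.2 FPKM in semaglutide kidneys, against 22.2, 73.7, 60.8 and 64.5 FPKM in control kidneys. The treated libraries formed narrow bands, and 3 of the controls lay above all 8 of them while control 1 lay below all 8. HIIT kidneys had 52.1, 59.1, 80.8 and 35.9 FPKM, of which library 4 was the lowest. The semaglutide main effect on Pvalb was -0.30 ± 0.21 (limma, adjusted p = 0.9996). Without both control 1 and HIIT 4, an alternative chosen after the data had been seen, it was -0.59 and passed (limma, adjusted p = 0.0452). These were the lowest and next lowest of the 16 libraries for Pvalb, and neither had semaglutide. Leaving them out therefore moved the contrast down by construction, and the call is not separate evidence. The number of all genes that passed there is given at the end. Pvalb is also a fast skeletal muscle gene. The 10 skeletal muscle markers summed to 0.468 to 2.23 FPKM in the kidney libraries, with Myh1 and Myh4, fast myosin heavy chains, at 0 in all 16.

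Of the calcium genes, the entry channel Trpv5 had 1.40, 2.79, 2.30 and 1.82 FPKM in combined kidneys, against 8.83, 4.19, 4.02 and 3.94 FPKM in control kidneys. The groups did not overlap. Semaglutide kidneys had 2.74, 1.15, 5.34 and 1.79 FPKM, with 1 library inside the control range, and HIIT kidneys had 2.12, 2.20, 2.91 and 17.1 FPKM. The range of Trpv5 was the widest of the 8 genes in HIIT, where the highest library was 8.09 times the lowest. The differences from control were -0.21 ± 0.46 in HIIT, -0.79 ± 0.46 in semaglutide and -0.97 ± 0.46 in combined kidneys on the log2 scale, with limma's adjusted p at 0.774, 0.913 and 0.994.

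The intracellular carriers Calb1 and S100g did not move alike. Calb1 had 43.0, 83.2, 47.5 and 44.7 FPKM in combined kidneys, against 67.5, 173, 189 and 162 FPKM in control kidneys. Combined library 2 lay above control 1, and the other 3 combined libraries lay below every control. Calb1 had 52.2, 46.8, 109 and 144 FPKM in HIIT kidneys and 95.5, 36.8, 144 and 42.4 FPKM in semaglutide kidneys, so that each group had 2 libraries below every control. The mean of the combined group was 0.369 times that of the control group, the lowest such ratio of the 8 genes. The differences from control were -0.80 ± 0.45 in HIIT, -1.004 ± 0.45 in semaglutide and -1.37 ± 0.45 in combined kidneys (limma, adjusted p = 0.385, 0.913 and 0.994).

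S100g had 732, 816, 595 and 707 FPKM in combined kidneys, against 352, 1200.3, 874 and 896 FPKM in control kidneys. The 4 combined libraries lay between control 1 and the other 3 controls. HIIT kidneys had 1097, 824, 925 and 413 FPKM and semaglutide kidneys 750.0, 655, 875 and 957 FPKM of S100g. The semaglutide main effect on S100g was -0.02 on the log2 scale, with a 95% interval of -0.51 to 0.47, so changes of about that size in either direction were not resolved. Leaving out single libraries turned the sign of each S100g difference from control and of its semaglutide main effect.

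Slc8a1, the exit step, had the smallest p of the 8 genes in semaglutide, in combined and in the semaglutide main effect. It had 2.77, 4.46, 3.11 and 3.65 FPKM in combined kidneys, against 5.99998, 8.55, 10.2 and 9.48 FPKM in control kidneys, and the groups did not overlap. Semaglutide kidneys had 4.48, 2.19, 6.39 and 2.90 FPKM, with library 3 just inside the control range. HIIT kidneys had 4.26, 3.87, 7.70 and 11.04 FPKM, with libraries 1 and 2 below every control and library 4 above every control. The differences from control were -0.39 ± 0.29 in HIIT, -0.99 ± 0.29 in semaglutide and -1.08 ± 0.29 in combined kidneys (limma, adjusted p = 0.434, 0.913 and 0.745). The semaglutide main effect was -0.84 ± 0.21, with an unadjusted 95% interval of -1.28 to -0.41. Its limma adjusted p was 0.293, and its exact two-sided permutation p was 0.00357, unadjusted. Leaving out each of the 16 libraries in turn gave a main effect between -0.95 and -0.72, with adjusted p from limma between 0.120 and 0.637. For the other genes the unadjusted exact permutation p of the main effect was 0.0354 (Trpv5), 0.0566 (Calb1), 0.0605 (Slc12a3), 0.181 (Wnk1), 0.186 (Pvalb) and 0.939 (S100g), beside that of Trpm6 above. Calb1 and Slc12a3 were thus below 0.05 in limma without adjustment (p = 0.0228 and 0.0439) but not in the exact permutation test.

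**Figure D2:**
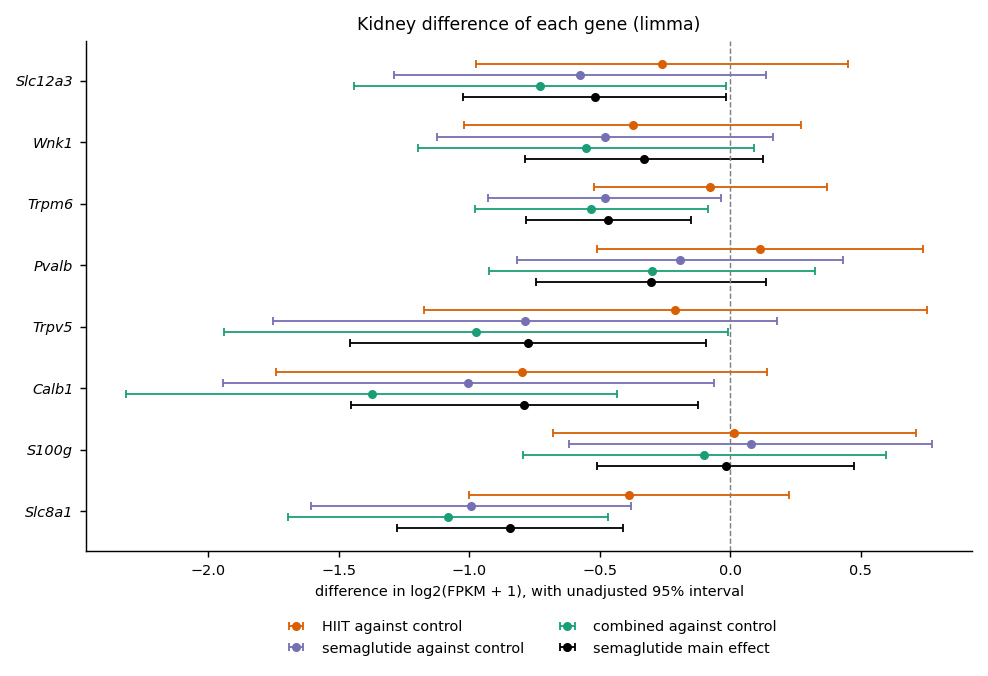
Difference in log2(FPKM + 1) of each gene (horizontal axis) for HIIT, semaglutide and combined against control (n = 4 each) and for the 8 libraries with semaglutide against the 8 without it, with unadjusted 95% intervals from limma. Intervals of Slc8a1, Calb1 and Trpm6 lie below 0 for semaglutide, combined and the main effect, those of Slc12a3 and Trpv5 for combined and the main effect, those of S100g lie on both sides of 0 throughout, and no gene passed after adjustment over all genes.

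None of the 8 genes passed an adjusted p of 0.05 in any of 8 comparisons, beside 0% of all 11551 genes in HIIT, 0.00866% in semaglutide and 0% in combined kidneys against control. The share passing was also 0.00866% for combined against HIIT and for combined against semaglutide, 0.0173% for the semaglutide main effect and 0% for the training main effect and for the interaction. At an unadjusted p below 0.05, 0 of the 8 were lower in HIIT (11.8% of all genes), 3 in semaglutide (2.66%), 5 in combined (1.63%) and 5 in the semaglutide main effect (1.47%), and none was higher. At that level 2 of the 8 were lower for combined against HIIT (0.407%) and 0 for combined against semaglutide (0.208%), the training main effect (2.73%) or the interaction (0.113%). These counts moved with single libraries. In semaglutide 1 of the 8 was below that p without semaglutide 2, semaglutide 4 (the library with the high adipocyte transcripts) or control 4, and 6 were without semaglutide 3. In combined 3 were without combined 1, combined 4, control 3 or control 4, and 2 without combined 3. In the main effect 3 were without semaglutide 4, combined 1 or HIIT 4, and 2 without semaglutide 2. For combined against HIIT 1 was without HIIT 1 or combined 2, and 0 without HIIT 3, HIIT 4, combined 1 or combined 3. Without semaglutide 4, the difference of Slc8a1 was -0.90 in semaglutide against control and -0.80 in the main effect (limma, adjusted p = 0.9997 and 0.381). The counts of the combined and semaglutide comparisons share the same control libraries, and the main effect contains both, so they are not separate evidence. The 8 genes were also chosen with earlier results of these data known, and most were correlated with each other over the libraries. The genes within a count are therefore not separate evidence either, and shares of all genes do not allow for this. The same holds for the counts that follow.

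All 4 combined libraries lay below all 4 controls for 4 of the 8 genes, Slc12a3, Wnk1, Trpv5 and Slc8a1, beside 2.49% of all genes tested. The exact two-sided permutation p was 0.0286 for each of these 4, which is the smallest that 4 against 4 libraries can give. Any gene whose groups do not overlap gets this p, so it only restates the lack of overlap. This p is unadjusted, from 32 such tests over 8 genes and 4 comparisons. No gene of the 8 lay wholly below control in HIIT (2.77% of all genes) or in semaglutide (3.09%). Without control 1, the library with the high immune transcripts, 7 of the 8 lay wholly below control in combined kidneys, all but Trpm6, beside 4.94% of all genes. The genes gained were Pvalb, Calb1 and S100g, for which control 1 was the lowest control, at 22.2, 67.5 and 352 FPKM. Leaving it out therefore favoured their gain by construction, and the 7 is not separate evidence. Without HIIT 4, Wnk1 and Trpv5 lay wholly below control in HIIT kidneys, but so did 24.5% of all genes. When libraries were scaled by median ratios, Slc12a3 was lost from the 4 and 3 were left.

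The median difference of the 8 genes was -0.24 in HIIT, -0.53 in semaglutide and -0.64 in combined kidneys against control, beside medians of -0.26, -0.14 and -0.09 over all genes tested. For the semaglutide main effect the median was -0.49, beside 0.01 over all genes. In HIIT the 8 genes were therefore close to the level of all genes, and median-ratio scaling, which moved the median of all genes there to -0.01, turned the sign of Slc12a3, Trpm6 and Trpv5 to 0.041, 0.13 and 0.014. In the semaglutide main effect all 8 were below 0, beside 45.9% of all genes, with S100g closest to 0. Between combined and semaglutide kidneys the median difference of the 8 was -0.13, and between combined and HIIT kidneys it was -0.46, beside 0.05 and 0.16 over all genes. The interaction of semaglutide and training was not past the threshold for any of the 8 (limma, adjusted p of 0.699 to 0.986).

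Across the 16 libraries the genes formed 2 sets. Slc12a3, Wnk1, Trpm6, Trpv5, Calb1 and Slc8a1 were positively correlated in every pair, and Pvalb and S100g were correlated with each other. No pair of Pvalb or S100g with the rest passed an adjusted p of 0.05. For Trpv5 and S100g, Pearson's r was -0.521 (permutation p = 0.041, adjusted p = 0.068). The split between the sets depended on single libraries. Without HIIT 4 and control 1 that r was 0.483, and the r of S100g and Slc8a1 went from 0.0019 to 0.580. Pearson's r of log2(FPKM + 1) was 0.931 for Calb1 and Slc8a1 (Spearman's rho 0.956; permutation p = 1e-05 for both, the smallest that 100000 resamples can give; adjusted p = 4.7e-05 and 7e-05 over 28 pairs). It was 0.927 for Slc12a3 and Wnk1 (rho 0.885; permutation p = 1e-05 for both), and 0.842 for Pvalb and S100g (rho 0.879; permutation p = 3e-05 and 4e-05). These relations held without the 2 libraries farthest from the median of the first gene, with r of 0.912, 0.886 and 0.782. They also held for the deviations from group means, with r of 0.954, 0.925 and 0.894, so they were present within the groups. Calb1 and S100g, which serve the same step, had an r of 0.165 (rho 0.297; permutation p = 0.54 and 0.26; adjusted p = 0.63 and 0.39). In all, 16 of the 28 pairs passed an adjusted p of 0.05 for r. After median-ratio scaling, r was 0.916 for Calb1 and Slc8a1, 0.918 for Slc12a3 and Wnk1 and 0.916 for Pvalb and S100g. Libraries also share RNA quality and tissue composition, whose part in the correlations was not tested.

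**Figure D3:**
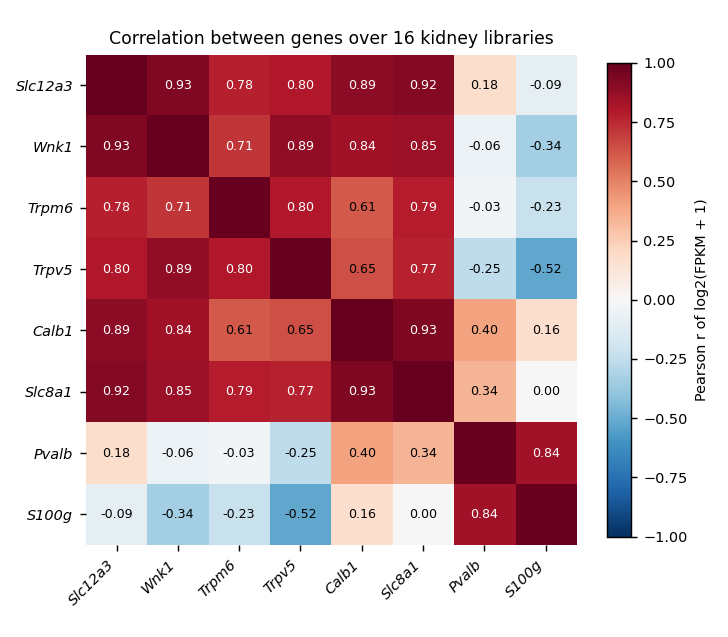
Pearson's r of log2(FPKM + 1) for each pair of genes over the 16 kidney libraries, as a colour scale with the value in each cell. Slc12a3, Wnk1, Trpm6, Trpv5, Calb1 and Slc8a1 form a block of positive values, and Pvalb and S100g pair with each other at 0.842.

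The 2 sets also differ in transcript length. The longest annotated transcript was 480 nt for S100g and 977 nt for Pvalb, against 3243 nt for Trpv5, 4222 nt for Calb1, 4310 nt for Slc12a3, 6509 nt for Trpm6, 11330 nt for Wnk1 and 18464 nt for Slc8a1. Only 0.142% of tested genes with a known length were shorter than S100g and 3.95% were shorter than Pvalb. For each library, the median centred log2 level of 2402 genes with transcripts over 5000 nt was subtracted from that of 483 genes under 1000 nt, leaving out the 8 genes and mitochondrial transcripts. This short-minus-long difference, chosen after the levels had been seen, was -0.72 in HIIT 4 and -0.54 in control 1, and between -0.26 and 0.49 in the other 14 libraries.

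Wnk1 was lower where the short-minus-long difference was higher, with an r of -0.812 (rho -0.741; permutation p = 0.00021 and 0.0016; adjusted p = 0.0012 and 0.013 over 8 genes). S100g was higher there, with an r of 0.740 (rho 0.594; permutation p = 0.0014 and 0.017; adjusted p = 0.0038 and 0.035). Trpv5 had an r of -0.805 (rho -0.615; permutation p = 0.00029 and 0.012; adjusted p = 0.0012 and 0.035) and Slc12a3 an r of -0.653 (rho -0.597; permutation p = 0.0061 and 0.017; adjusted p = 0.012 and 0.035). Trpm6 had an r of -0.569 and Pvalb of 0.592, which passed for r (permutation p = 0.021 and 0.015; adjusted p = 0.028 and 0.024) but not for rho (rho -0.426 and 0.497; permutation p = 0.099 and 0.052; adjusted p = 0.11 and 0.082). In all, 6 of the 8 genes passed for r and 4 of them for rho too, among them 3 of the 4 genes whose combined libraries all lay below control. Without HIIT 4 and control 1 the r was -0.481 for Trpv5, -0.586 for Slc12a3, -0.187 for Trpm6 and 0.307 for Pvalb. Likewise the r of Wnk1 was -0.711 and that of S100g 0.347. The relations of S100g, Trpm6 and Pvalb thus rested largely on these 2 libraries, and that of Trpv5 weakened clearly without them. Slc8a1, the longest transcript, had an r of -0.466 (rho -0.447; permutation p = 0.069 and 0.085; adjusted p = 0.079 and 0.11), and Calb1 had -0.416 (rho -0.391; permutation p = 0.11 and 0.14; adjusted p = 0.11 and 0.14). By group the short-minus-long difference was 0.08 ± 0.55 in HIIT, 0.04 ± 0.30 in semaglutide, 0.00 ± 0.11 in combined and -0.11 ± 0.34 in control libraries (SD, n = 4 each). The groups overlapped in it, and its part in the group differences and in the correlations between the genes was not tested.

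**Figure D4:**
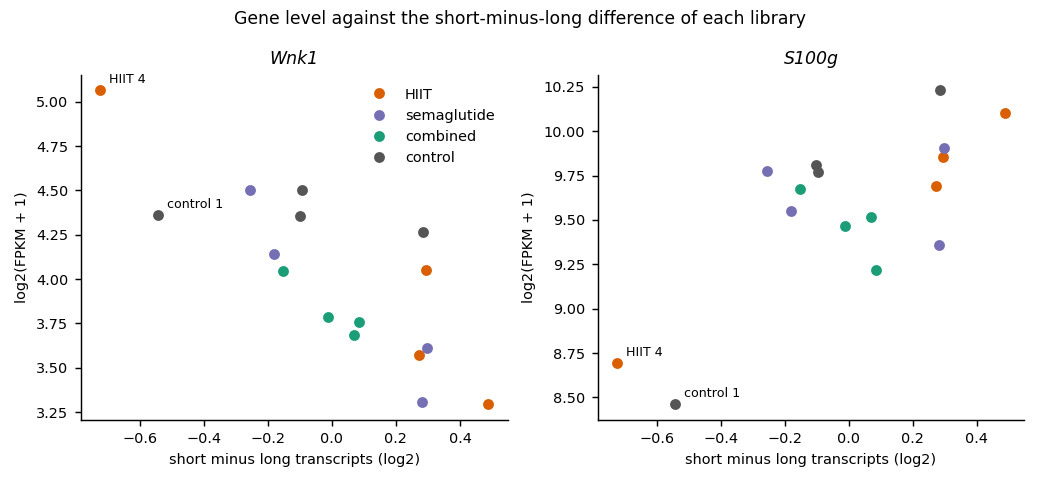
Level of Wnk1 and of S100g as log2(FPKM + 1) (vertical axes, not from 0) against the median log2 difference between genes with short and with long transcripts in each of the 16 libraries, coloured by group. HIIT 4 and control 1, at -0.72 and -0.54, have low S100g, and HIIT 4 has the highest Wnk1.

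Ratios between 2 genes of a library do not depend on how the library is scaled. Of 10 ratios computed, 6 overlapped with control in every treated group: Wnk1, Trpm6, Pvalb, Trpv5, Calb1 and S100g, each over Slc12a3. Slc8a1 over Slc12a3 was 0.0579 to 0.0785 in semaglutide kidneys and 0.0617 to 0.0741 in combined kidneys, below the 0.0926 to 0.121 of control kidneys in every library. In HIIT kidneys it was 0.0767 to 0.111 and overlapped with control. Of the 7 ratios to Slc12a3, 1 lay below control without overlap in semaglutide and 1 in combined kidneys, beside 0.0519% of 11550 genes set over Slc12a3 in either group. S100g over Calb1 was 9.81 to 17.0 in combined kidneys, above the 4.63 to 6.94 of control kidneys, while HIIT (2.87 to 21.0) and semaglutide (6.10 to 22.6) kidneys overlapped with control. Pvalb over Calb1 was also above control in combined kidneys, at 0.517 to 0.943 against 0.322 to 0.426 in control kidneys. Of all genes set over Calb1, 17.5% lay above control without overlap in combined kidneys. The ratios were picked with the levels known and are given without a test.

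**Figure D5:**
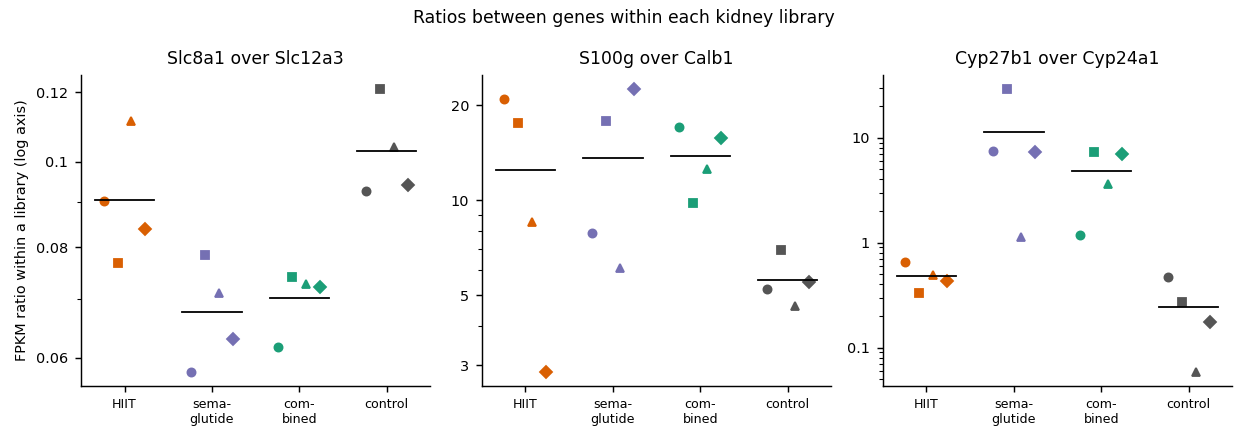
FPKM ratios within each kidney library (vertical log axes) of Slc8a1 over Slc12a3, S100g over Calb1 and Cyp27b1 over Cyp24a1, 4 libraries a group with a line at the mean (symbols mark library numbers 1 to 4 as circle, square, triangle and diamond). Slc8a1 over Slc12a3 lies below every control, and Cyp27b1 over Cyp24a1 above every control, in all semaglutide and combined libraries.

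Of the genes that set vitamin D levels, Cyp27b1, the enzyme that makes active vitamin D, rose with semaglutide: it measured 85.8, 42.0, 57.8 and 58.9 FPKM in semaglutide kidneys and 15.1, 39.4, 39.5 and 29.7 FPKM in combined kidneys, against 17.5, 13.6, 18.1 and 10.4 FPKM in HIIT kidneys and 17.6, 21.5, 6.96 and 14.0 FPKM in control kidneys. Combined 1 alone lay among the libraries without semaglutide. The main effect was 1.48 ± 0.23 on the log2 scale (limma, adjusted p = 0.0431). This call was fragile: it held when semaglutide 2, combined 1, control 1 or control 2 was left out and was lost without each of the other 12 libraries, with adjusted p from limma between 0.00521 and 0.155. It was also lost with no filter on low values (0.130), with median-ratio scaling (0.0541) and with the replicate number as a block (0.122), while the difference itself stayed between 1.32 and 1.63.

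Cyp24a1, which breaks active vitamin D down and is a classic target of the vitamin D receptor, had 11.5, 1.43, 50.6 and 8.06 FPKM in semaglutide kidneys and 12.7, 5.34, 10.9 and 4.23 FPKM in combined kidneys. It had 26.7, 41.1, 36.8 and 24.02 FPKM in HIIT kidneys and 37.1, 78.9, 118 and 80.1 FPKM in control kidneys. All 4 combined libraries and 3 of the 4 semaglutide libraries lay below every HIIT and control library, with semaglutide 3 the exception. The main effect was -2.34 ± 0.44, which missed the threshold (limma, adjusted p = 0.0830), and it passed without semaglutide 3 (adjusted p = 0.00246). Cyp27b1 over Cyp24a1 was 1.14 to 29.3 in semaglutide and 1.19 to 7.37 in combined kidneys, above the 0.0592 to 0.475 of control kidneys. Vdr, the vitamin D receptor gene, differed by -0.51 ± 0.20 and Kl, the gene of the co-receptor Klotho, by -0.44 ± 0.23 in the main effect (limma, adjusted p = 0.897 and 0.9996). Of 8 tested calcium genes outside the members, 1 passed upward and 0 downward in the semaglutide main effect, and 0 passed in the 7 other comparisons.

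The genes whose profile over the 16 libraries was closest to a member, by the root mean square difference of log2(FPKM + 1) centred per gene, were led by Kl and Vdr for both Slc12a3 and Slc8a1. For Slc12a3 these differences were 0.22 and 0.23, followed by Rab11fip3 at 0.25, beside the gene's own SD of 0.56. For Slc8a1 they were 0.26 and 0.27, followed by Gatm at 0.28. For Calb1 they were Tfpi2 at 0.37, Acss1 at 0.37 and then Vdr at 0.40. Klk1, tissue kallikrein of the connecting tubule, was the closest to S100g at 0.21, and for Pvalb it came at 0.23 after Pcbd1 at 0.19 and Slc22a18 at 0.21. S100g was next closest to Spp2 at 0.22 and Mif at 0.23. The closest to Wnk1 were Dipk1a, Slc2a9 and Commd3 at 0.16 to 0.18, to Trpm6 Fbxw17, Ccdc43 and E2f1 at 0.20 to 0.21, and to Trpv5 Col12a1, Rrm2 and Col8a1 at 0.33 to 0.38. Trpv5 was highest in HIIT 4 and next highest in control 1, and so were Col12a1 (10.4 and 5.74 FPKM), Rrm2 (12.2 and 7.22 FPKM) and Col8a1 (8.32 and 3.64 FPKM). Their closeness to Trpv5 without those libraries was not tested.

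Other genes of the same pathways were taken from fixed lists. Of 13 tested sodium chloride genes outside the members, 0 passed in any comparison. Their median difference was -0.24 in HIIT, -0.07 in semaglutide and -0.13 in combined kidneys against control. Sgk1, the aldosterone-induced kinase, had the smallest p of them in HIIT, at 33.9, 41.1, 58.6 and 51.5 FPKM in HIIT kidneys, against 113, 87.0, 151 and 105 FPKM in control kidneys. All 4 HIIT libraries lay below all 4 controls, and the difference was -1.28 ± 0.31 (limma, adjusted p = 0.378). Of 14 tested magnesium genes outside the members 0 passed, with Slc41a3, a mitochondrial magnesium exporter, at -0.74 ± 0.21 in combined kidneys (limma, adjusted p = 0.771). Of 7 tested EF-hand genes outside the members 0 passed either. Calb2, calretinin and the relative of Calb1, was at 0 in every library, and Ocm, oncomodulin and the relative of Pvalb, reached at most 0.127 FPKM. Of the S100 family, to which S100g belongs, S100a1 measured 175 to 312 FPKM, S100a10 95.9 to 199 FPKM and S100a11 119 to 415 FPKM over the 16 libraries.

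Markers of neighbouring cells were set beside these results. The 9 distal convoluted tubule markers outside the members, which include Wnk4, Klhl3 and Kcnj10, summed to 340.0 to 560 FPKM in combined kidneys, against 244 to 472 FPKM in control kidneys, and 0 of the 8 tested passed in any comparison. Their median difference in combined kidneys was -0.07, against -0.64 for the 8 members. The markers went both ways there, with 5 of the 8 tested below control. Ppp1r1a was at 0.89 ± 0.40 and Tmem52b at -0.59 ± 0.46 (limma, adjusted p = 0.994 for each). Egf, Ppp1r1a and Kcnj16 weighed most in the sum, with combined means of 150, 115 and 97.7 FPKM. The median and the sum therefore do not measure the share of distal tubule cells. The 12 connecting tubule and principal cell markers summed to 1495 to 2247 FPKM in combined kidneys, against 806 to 2250 FPKM in control kidneys, with a median difference of 0.06 and 0 passing. All 6 tested thick ascending limb markers were above control in combined kidneys, with a median of 0.62 and 0 passing, at summed levels of 735 to 1266 FPKM in combined, against 356 to 672 FPKM in control kidneys. Proximal tubule markers, 10 of them, summed to 1901 to 2232 FPKM in combined kidneys. In control kidneys they summed to 1508 (control 1), 2594, 2746 and 2827 FPKM. Their median difference was -0.03, with 6 of 10 below control and 0 passing. The 6 podocyte markers summed to 78.9 to 109 FPKM in combined, against 74.1 to 121 FPKM in control kidneys. Here the median was -0.14, with 5 of 6 below control and 0 passing. These are values of whole-kidney extracts, and the part of tissue sampling in the members' differences was not tested.

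In liver, where 3 libraries a group were sequenced and tabulated separately, Trpv5 was at 0 in all 12 libraries. Wnk1 was at 9.29 FPKM in liver semaglutide 2, the library with skeletal muscle transcripts described below, and at 3.47 to 4.31 FPKM in the others. Slc12a3, Trpm6, Calb1, S100g and Slc8a1 were at most 0.432 FPKM in every liver library, and Pvalb was at 0 in all but 1 library.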

How the data were processed

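Libraries of bulk liver and kidney RNA were prepared and sequenced by the authors, and the submitters' processing notes list, without roles or order, STAR 2.7.9a, StringTie 2.1.4, featureCounts 2.0.1, Trimmomatic 0.36, FastQC, CASAVA and the build GRCm39. The values are FPKM as deposited by the authors, and the sources used here give neither the strand setting nor a scaling between libraries. Low values lay near whole multiples of a common step in too few cases to recover reads (22.4 to 46.7% at the best step, within 0.05), so depth is unknown and errors rest on differences between libraries. No label says which animal a library came from, and p-values therefore reflect only how these samples vary, which may be technical.

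The log2(FPKM + 1) of every gene that reached 1 FPKM in 4 or more of the 16 kidney libraries was fitted with limma 3.58.1 (intensity trend, 4 groups at once, no block) in R 4.3.3, and p-values were adjusted by Benjamini-Hochberg over all 11551 genes, with a threshold of 0.05. The 1853 loci without a gene name were left out. Exact permutation tests, correlations and figures used Python 3.11.15, scipy 1.17.1 and matplotlib 3.10.9. In data simulated on combined against control with 200 changed genes, limma found 62% of those set to a log2 change of 1, 96.9% at 2 and 100% at 3, made 15 false calls, and made 0 calls where nothing was changed. The noise was drawn for each gene on its own, without shifts shared by the genes of a library. These rates therefore need not hold for the real libraries.

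The 8 genes and all gene lists were chosen with earlier results of these data known. Named were the 8 genes, of each list up to 4 genes that passed or else up to 2 with the smallest p, and the 3 genes closest in profile to each member, beside defining markers of lists. Calb2, Ocm, the S100 family members, Acta1 and Mb were named after their values were seen. Transcript lengths and promoters came from annotations of another build, GRCm38 (GENCODE M21 and RefSeq), which gave a length for 11294 of the tested genes. In that annotation S100g overlaps Ctps2 on the opposite strand, which reached 12.6 FPKM. Results were recomputed with median-ratio scaling, with 0.1 as the pseudocount, without the filter, with removal of mitochondrial transcripts, a replicate block, with only the groups compared, without the intensity trend, without each library in turn and, chosen after seeing the data, without both control 1 and HIIT 4.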

Additional observations from a re-analysis of the deposited data

Results flagged for a closer look

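Trpv5 in HIIT 4 (17.1 FPKM) and in control 1 (8.83 FPKM) and Calb1 in combined 2 (83.2 FPKM) stood far above the other 3 libraries of their groups, by a gap that exceeded Dixon's 95% limit for 4 values. These were 3 of 32 groups of values tested, where chance flags about 1 in 20. Pvalb in the liver library semaglutide 2 measured 68.5 FPKM and 0 in the other 11 liver libraries, and in that library the skeletal muscle genes Acta1 (3903 FPKM) and Mb (2730.1 FPKM) were also high, while Acta1 and Mb were at most 0.138 FPKM in each of the others.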

How the results depend on the processing

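Of 568 values of the 8 genes under alternatives, over HIIT, semaglutide and combined against control and the semaglutide main effect, 538 kept their direction and their side of the threshold, 28 changed sign and 2 became calls (Wnk1 in HIIT without HIIT 4, Pvalb in the main effect without control 1 and HIIT 4). In HIIT against control, median-ratio scaling gave 0.041 for Slc12a3, 0.13 for Trpm6 and 0.014 for Trpv5, and removing mitochondrial transcripts gave 0.087 for Trpm6. Without control 1 and HIIT 4 the HIIT differences were -0.071 for Pvalb and -0.056 for S100g, and the semaglutide difference of S100g was -0.29. With single libraries left out, HIIT differences ran from -0.27 to 0.31 (Pvalb), -0.35 to 0.31 (S100g), -0.21 to 0.017 (Trpm6) and -0.81 to 0.033 (Trpv5), and those of S100g from -0.29 to 0.30 in semaglutide, -0.47 to 0.12 in combined and -0.20 to 0.092 in the main effect. The genes called over the whole table numbered 0 (HIIT), 1 (semaglutide), 0 (combined), 1 (combined against HIIT), 1 (combined against semaglutide), 2 (semaglutide main effect), 0 (training) and 0 (interaction), with 1439, 384, 345, 686, 132, 537, 447 and 456 at an unadjusted p under 0.05 in limma. A pseudocount of 0.1 gave 0 for combined against semaglutide and 1 for training. No filter gave 0 for semaglutide, 0 for combined against semaglutide and 1 for the main effect. Median-ratio scaling gave 0 for semaglutide, 1 for combined, 2 for combined against HIIT, 0 for combined against semaglutide and 7 for the main effect, and removing mitochondrial transcripts gave 5, 2, 2, 0 and 11. Only the groups compared gave 0 for semaglutide, combined against HIIT and combined against semaglutide. The replicate block gave 0 for semaglutide and 0 for combined against semaglutide, but the replicate numbers share only a number: 9 of 24 same-numbered pairs had a correlation of deviations above 0.1, and 2 of 16 libraries correlated best with their own number. Without control 1 and HIIT 4 the counts were 2 (HIIT), 5 (semaglutide), 14 (combined against HIIT), 32 (semaglutide main effect, with 1 of the 8 genes) and 1 (training). Leaving out single libraries gave 0 to 2123 (HIIT, 2123 without HIIT 4, with 0 to 1 of the 8 genes), 0 to 2 (semaglutide), 0 to 0 (combined), 0 to 4 (combined against HIIT, 4 without HIIT 4), 0 to 1 (combined against semaglutide), 1 to 6 (main effect, 6 without control 1), 0 to 1 (training) and 0 to 1 (interaction). The causes were not tested. Scaling by median ratios put the median of all genes in HIIT against control at -0.01, where it was -0.26 without. The pairs of members with r above 0 were 21, and 25 after median-ratio scaling.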
